A study of Mus musculus with 4 samples.

Results

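The 59 genes described here encode synaptic adhesion molecules and synaptic organisers. They were taken by exact symbol from a fixed list of 17 gene families, and all 59 were among the 32531 gene names counted. The mice were adults of the Slc17a6-EGFP/Rpl10a line, called JX883 in the labels, and the tissue was their deep cerebellar nuclei, through which the cerebellum sends its output. In this line, named for the vesicular glutamate transporter gene Slc17a6, an EGFP-tagged ribosomal protein was used to pull down ribosomes with antibodies against EGFP (translating ribosome affinity purification, TRAP). All 4 libraries were made from immunopurified RNA of 3 pooled mice each and belong to a single group. Every mouse carried the transgene, none was treated, and no age beyond adult is given. No input RNA or second genotype was among the samples used here, so the values are levels in pulled-down RNA and not enrichment over the tissue. The labels do not say whether the pools were separate cohorts, so p-values concern only the spread between these libraries, which may be technical.

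Synaptic adhesion molecules hold the presynaptic and postsynaptic membranes together across the cleft, and organisers recruit release sites and receptors to the contact. Neurexins and the LAR-type receptor phosphatases act mainly on the presynaptic side. They bind postsynaptic partners such as neuroligins, Lrrtm and Slitrk proteins, and secreted proteins such as cerebellins and neurexophilins. In the cerebellum the best known case is Cbln1, which granule cells secrete and which acts at the synapses of parallel fibres on Purkinje cells. Contactins and their Caspr partners belong to the same adhesion repertoire but are also known for the contacts of axon and myelin around the node of Ranvier.

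Counts assigned to genes ranged from 9621762 to 10988373 per library. Where no read was counted, a level of up to 0.273 to 0.312 counts per 1000000 (CPM), which is 3 counts, is still possible from counting error alone. Slc17a6 stood at 2143 ± 153 CPM (SD, n = 4). Marker lists of other cell types were also present, and they were not even across libraries. The 9 granule cell markers summed to 770 to 901 CPM in replicates 1, 2 and 4 and to 1645 CPM in replicate 3. The 8 Purkinje cell markers summed to 1420 to 1992 CPM in replicates 1, 2 and 4 and to 3791 CPM in replicate 3, and the 4 markers of GABA and glycine neurons summed to 72.3 to 173 CPM there and to 369 CPM in replicate 3. Itpr1 alone gave 1738 CPM of the Purkinje cell sum in replicate 3. Slc17a7 of the granule cell list was highest in replicate 1 (79.2 CPM, against 53.5 CPM in replicate 3). Pcp2 of the Purkinje cell list was highest in replicate 2 (13.0 CPM, against 9.68 CPM in replicate 3). All other genes of these lists were highest in replicate 3. The 9 markers of glutamatergic nuclear neurons summed to 2989, 2563, 2507 and 3066 CPM in replicates 1 to 4. Slc17a6 alone gave 2237, 2011, 2014 and 2309 CPM of these sums. Other genes of that list differed in their order, with Meis2 lowest (226 CPM) and Spp1 highest (141 CPM) in replicate 3. All 9 markers reached 1 CPM in every library, both for the granule cell list and for the glutamatergic list, and so did 7 of 8 for Purkinje cells and 3 of 4 for GABA and glycine neurons. Slc6a5 of the last list had no count in replicate 4. The 8 astrocyte and Bergmann glia markers summed to 377 to 830 CPM and the 8 oligodendrocyte markers to 476 to 1170 CPM, both highest in replicate 3, with Opalin at 0 in replicate 2. Microglia markers summed to at most 11.498 CPM, in replicate 3, and C1qa had no count in any library. The 2 markers of oligodendrocyte precursors summed to at most 12.6 CPM, and the 3 endothelial markers to at most 29.7 CPM, in replicate 3, with Cldn5 at 0 in replicate 3.

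Levels are compared between genes as CPM per kilobase of exon, since longer transcripts give more reads, and a value after ± is the SD over the 4 libraries unless named as an SE. Of the 59 genes, 57 reached 1 CPM in all 4 libraries. The other 2 were Nxph2 and C1ql2. Over all gene names, 34.5% (11213) reached 1 CPM in every library. The median level of the 57 genes was 10.6 CPM per kb, against 6.21 CPM per kb over the 10911 genes that reached 1 CPM in every library and had an exon length. Of all 59 genes, 39 lay above that median. The 5 genes highest by level, each above 90% of those genes, were Cbln1, Clstn1, Cadm3, Nxph4 and Slitrk1. Among the genes at 1 CPM the lowest level was that of Il1rapl1 at 0.588 ± 0.234 CPM per kb. In bulk RNA of this kind, fewer cells of a type and less RNA per cell cannot be told apart.

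**Figure D1:**
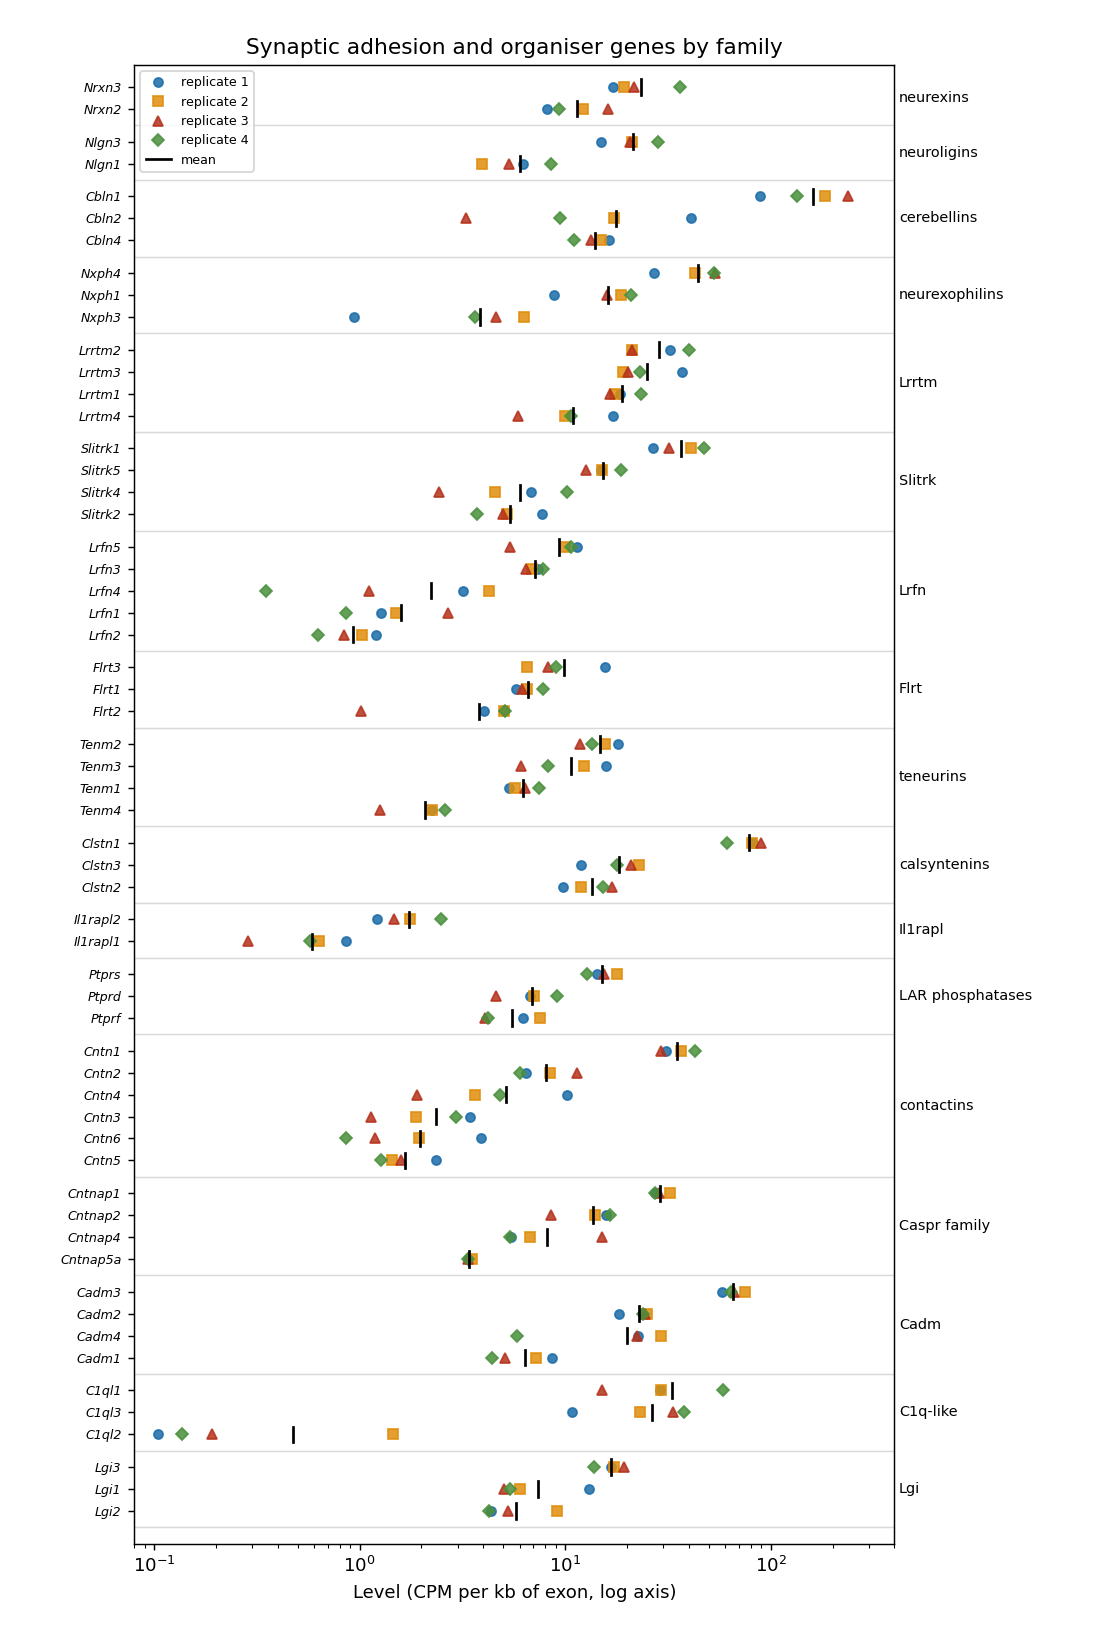
Level of each gene in CPM per kilobase of exon (log axis), grouped by family, with a symbol for each of the 4 libraries and a bar at their mean; Nxph2, with no count, is left out. Cbln1 is highest at 88.8 to 238 CPM per kb, and the spread between libraries is widest for C1ql2, Cbln2 and Lrfn4.

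Members of a family were compared within each library, in all 82 pairs that the 17 families allow. Over 4 libraries an exact two-sided sign-flip test has too few arrangements to pass 0.05 for any pair, and pairs are described by whether the sign held in every library and whether the levels overlapped. The ratio had the same sign in 4 of 4 libraries for 65 of the 82 pairs. Leaving out the 5 pairs with Nxph2 or C1ql2, it did so in 60 of 77 pairs (77.9%), and the levels of the genes did not overlap in 50 (64.9%). Over all pairs of the 10911 genes these shares were 75.4% and 65.5%, so the shares among family pairs were near those among all pairs. The median size of the ratio over the 77 pairs was 1.497 on the log2 scale.

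On the presynaptic side, Nrxn3 was the higher of the neurexin genes in this list, at 17.01, 19.3, 21.5 and 36.2 CPM per kb in replicates 1 to 4. Nrxn2 stood at 8.15, 12.3, 16.2 and 9.30 CPM per kb. Neurexins are presynaptic receptors for neuroligins, Lrrtm proteins, cerebellins and neurexophilins. Nrxn3 exceeded Nrxn2 in every library, by a log2 ratio that ran from 0.413 in replicate 3 to 1.96 in replicate 4, and the levels of the genes did not overlap. The genes Nlgn2, Adgrb3, Adam22, Adam23 and Slitrk3 below are outside the list and were picked with their values already in view. Of the LAR-type phosphatases, which bind Slitrk proteins, Il1rapl1 and other postsynaptic partners, Ptprs stood at 14.3, 17.8, 15.5 and 12.8 CPM per kb. It lay above Ptprd (6.87 ± 1.84) and Ptprf (5.51 ± 1.68) in every library without overlap. Ptprd and Ptprf were not ordered, with Ptprd higher in 3 of 4 libraries. The level of Ptprs rests on an exon length of 14990 bases over all isoforms, and with the longest transcript (6855 bases) it was 33.1 CPM per kb. For Ptprd the change was from 6.87 to 15.8, for Nrxn2 from 11.47 to 23.8 and for Nrxn3 from 23.5 to 37.4 CPM per kb.

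Secreted organisers included the highest gene of the whole list. Cbln1 stood at 88.8, 184, 238 and 135 CPM per kb, higher than 98.9% of genes at 1 CPM. It was highest in replicate 3 and lowest in replicate 1. Cbln2, a related neurexin ligand, stood at 40.8, 17.3, 3.31 and 9.47 CPM per kb. It was highest in replicate 1 and lowest in replicate 3, the reverse of Cbln1 at both ends, with counts from 1135 to 100. Cbln4 varied little, at 16.3, 14.9, 13.4 and 11.1 CPM per kb. Cbln1 exceeded both in 4 of 4 libraries without overlap, by a log2 ratio of 3.60 ± 2.04 over Cbln2 and 3.44 ± 0.72 over Cbln4. Within a library the Cbln1 to Cbln2 ratio ran from 1.12 in replicate 1 to 6.10 in replicate 3 on the log2 scale. Cbln2 and Cbln4 were not ordered, each being higher in 2 of 4 libraries. Without replicate 1 the mean of Cbln2 was 10.01 in place of 17.7 CPM per kb. Cbln3, outside the list and itself among the granule cell markers summed above, stood at 43.1, 48.6, 91.3 and 34.4 CPM per kb. Like Cbln1, it was highest in replicate 3. Replicate 3 was also the library with the highest sums of all marker lists given above except those of glutamatergic nuclear neurons and oligodendrocyte precursors, and the part of other cells in the values of Cbln1 was not tested.

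**Figure D2:**
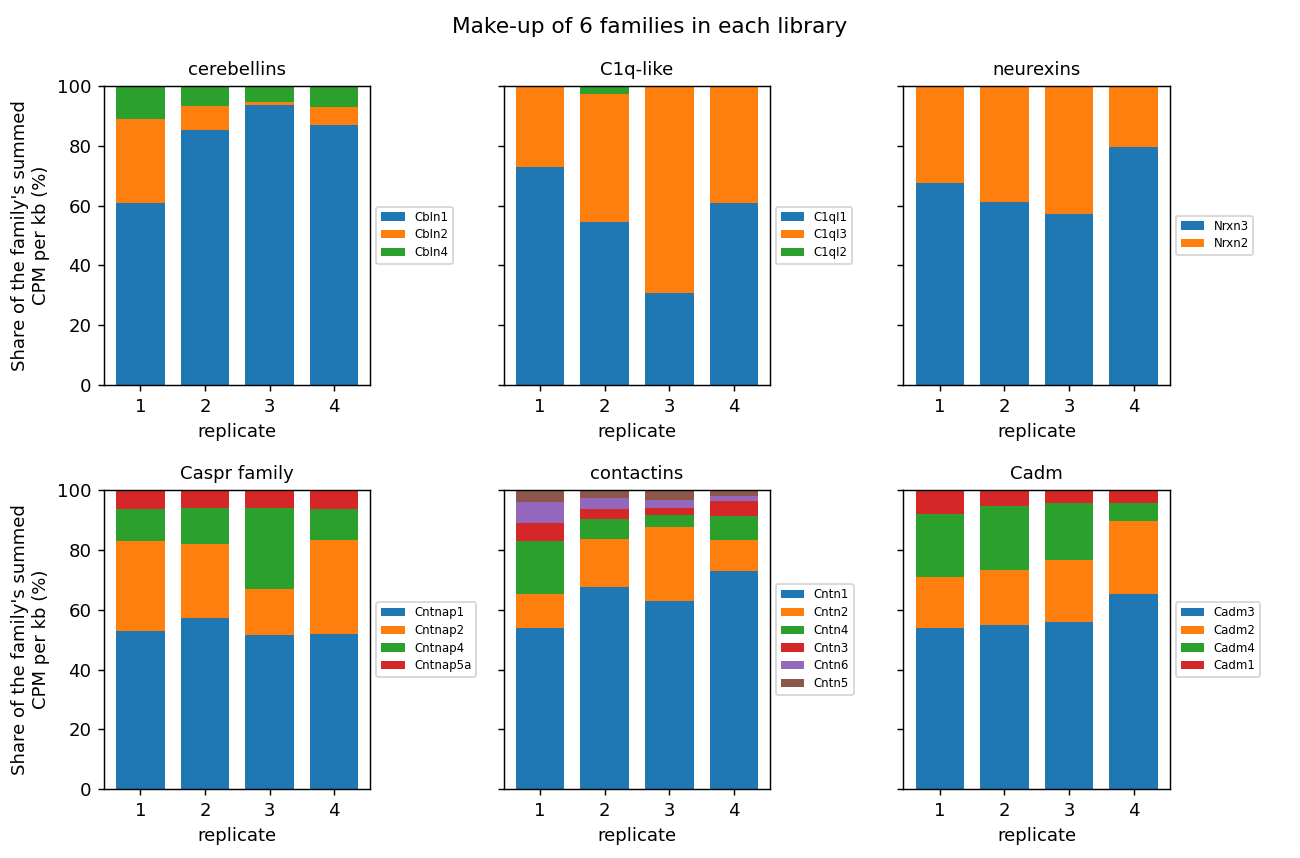
Share (%) of each member in the summed CPM per kb of its family, for 6 families, with 1 bar for each library. Cbln1 makes up 60.9% of the cerebellin level in replicate 1 and 93.4% in replicate 3, and C1ql1 72.8% and 30.8% of the C1q-like level in the same libraries.

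The C1q-like proteins are secreted ligands related to the cerebellins. C1ql1, known from climbing fibres, where it binds the adhesion receptor Adgrb3, stood at 29.1, 29.2, 15.1 and 58.9 CPM per kb. C1ql3 stood at 10.7, 23.1, 33.6 and 38.0 CPM per kb. Replicate 4 was the highest library for both genes, but C1ql1 was lowest in replicate 3 and C1ql3 in replicate 1. C1ql1 was the higher in 3 of 4 libraries and the levels overlapped; undivided by length, C1ql3 had the higher mean (66.8 against 48.7 CPM). Of the exon bases of C1ql3, 64.2% overlap genes annotated on the opposite strand, so its level is uncertain if strand was not used in counting. C1ql2 had 2, 30, 4 and 3 counts in replicates 1 to 4, which is at or near the limit of detection outside replicate 2. Adgrb3 stood at 4.54 ± 1.94 CPM per kb.

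Neurexophilins are secreted ligands of alpha-neurexins. Nxph4 led them at 27.0, 42.7, 53.7 and 53.3 CPM per kb, lowest in replicate 1. Nxph1 stood at 8.79, 18.8, 15.9 and 20.9 CPM per kb, and Nxph3 at 0.941, 6.29, 4.61 and 3.64 CPM per kb, both also lowest in replicate 1. The order Nxph4, Nxph1, Nxph3 held in every library without overlap. Undivided by length, Nxph1 and Nxph4 differed by less than their spread (76.6 ± 25.2 and 74.0 ± 20.98 CPM); the exons of Nxph1 span 4753 bases and those of Nxph4 1675. Nxph2 had no count in any library. Set against a floor of 3 counts per library, the level of Nxph4 was at least 223-fold higher in replicate 1 and at least 504-fold higher in replicate 4.

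The Lgi proteins are secreted as well and bind the receptors Adam22 and Adam23. Lgi3 stood at 16.8, 17.4, 19.3 and 13.8 CPM per kb and lay above Lgi1 and Lgi2 in every library without overlap. Undivided by length the direction against Lgi1 turned, with 83.8 ± 43.3 CPM for Lgi1 and 65.5 ± 8.81 CPM for Lgi3. Lgi1, a gene of inherited epilepsy in humans, stood at 13.1, 6.04, 5.02 and 5.39 CPM per kb, so that replicate 1 lay apart from the other 3. Lgi1 and Lgi2 were not ordered, each being higher in 2 libraries. Adam22 and Adam23 stood at 19.5 ± 2.71 and 21.9 ± 3.14 CPM per kb.

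Among the postsynaptic partners of neurexins, Nlgn3 stood at 15.0, 21.2, 20.8 and 28.4 CPM per kb. It exceeded Nlgn1, at 6.21, 3.95, 5.32 and 8.55 CPM per kb, in every library without overlap. Neuroligins bind neurexins across the cleft, with Nlgn1 known mainly from excitatory synapses and Nlgn3 from both kinds. Of the exon bases of Nlgn3, 3823 are shared with another annotated gene on its strand, and how reads there were assigned is not given in the sources used here. Nlgn2, the neuroligin of inhibitory synapses and outside the list, stood at 30.6 ± 5.86 CPM per kb. The Lrrtm genes, which encode leucine-rich postsynaptic proteins that bind neurexins, lay close together. Lrrtm2 stood at 32.5, 21.2, 21.1 and 39.9 CPM per kb. Lrrtm3 followed at 24.9 ± 8.37 and Lrrtm1 at 19.0 ± 3.05 CPM per kb, and neither the pair Lrrtm2 and Lrrtm3 nor the pair Lrrtm1 and Lrrtm3 kept its sign in all libraries. Without replicate 4 the highest was Lrrtm3 (25.5 against 24.97 CPM per kb). Lrrtm4 was lowest in every library at 10.9 ± 4.63 CPM per kb, and 25.1% of its exon bases overlap a gene on the opposite strand. Undivided by length, Lrrtm4 was above Lrrtm1 (67.2 ± 28.4 and 57.6 ± 9.24 CPM).

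Slitrk and Lrfn proteins are postsynaptic proteins with leucine-rich repeats, several of which bind LAR-type phosphatases. Slitrk1 stood at 26.8, 41.0, 31.9 and 47.2 CPM per kb, above the other 3 Slitrk genes of the list in every library without overlap. Within the list Slitrk5 followed at 15.3 ± 2.44 CPM per kb. Slitrk3, outside the list, stood at 25.5 ± 4.39 CPM per kb. Slitrk4 varied, with 6.81, 4.57, 2.43 and 10.2 CPM per kb, and was not ordered against Slitrk2 at 5.41 ± 1.68. Lrfn5 stood at 11.4, 9.97, 5.39 and 10.6 CPM per kb. Lrfn3, at 7.13 ± 0.568 CPM per kb, was lower than Lrfn5 in 3 of 4 libraries. Lrfn1, Lrfn2 and Lrfn4 had means from 0.924 (Lrfn2) to 2.23 CPM per kb (Lrfn4). Lrfn4 stood at 10.7, 14.4, 3.74 and 1.18 CPM, from 148 counts in replicate 2 to 13 in replicate 4, which is a fold of 12.1 between the highest and the lowest library.

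Il1rapl1 and Il1rapl2, members of the interleukin receptor family of which the first binds Ptprd, were among the lowest. Il1rapl2 stood at 1.22, 1.76, 1.47 and 2.50 CPM per kb, above Il1rapl1 in every library without overlap. Of the calsyntenins, transmembrane proteins with cadherin repeats, Clstn1 stood at 82.4, 80.7, 89.3 and 61.0 CPM per kb. Clstn1 is known for linking cargo vesicles to kinesin. It exceeded Clstn3 (18.4 ± 4.72) by 2.11 ± 0.46 and Clstn2 (13.5 ± 3.22) by 2.55 ± 0.46 on the log2 scale, in 4 of 4 libraries without overlap. Clstn3 was above Clstn2 in every library, but their levels overlapped.

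Teneurins and Flrt proteins both bind the latrophilins, which are adhesion receptors. Tenm2 stood at 18.2, 15.6, 11.8 and 13.5 CPM per kb and was the highest teneurin in every library. Its level overlapped that of Tenm3 at 10.6 ± 4.29 CPM per kb. Tenm1 (6.21 ± 0.911) and Tenm3 were not ordered, and Tenm4, at 2.09 ± 0.584 CPM per kb, was below the other 3 in every library without overlap. Tenm2 made up 42.4 to 46.4% of the summed teneurin level in all libraries. Of the Flrt genes, Flrt3 stood at 15.6, 6.54, 8.23 and 9.00 CPM per kb, highest in replicate 1. Flrt1 was even, at 6.57 ± 0.873 CPM per kb. Flrt2 stood at 4.04, 5.04, 1.02 and 5.12 CPM per kb, so that replicate 3 was the low library. The latrophilin gene Adgrl1 was among the 3 highest partner genes at 44.1 ± 5.48 CPM per kb.

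Of the contactins, adhesion proteins anchored by a lipid, Cntn1 stood at 31.0, 36.4, 29.3 and 42.9 CPM per kb. It was above the other 5 in every library without overlap and made up 54.0 to 72.9% of the contactin level. Cntn1 pairs with Cntnap1 at the paranode, beside the node of Ranvier. Cntnap1 stood at 27.5, 32.5, 28.7 and 27.3 CPM per kb and led the Caspr family. Cntn2 and Cntnap2, known as partners at the juxtaparanode, stood at 8.08 ± 2.43 and 13.7 ± 3.63 CPM per kb. Cntn2 was highest in replicate 3 at 11.4 CPM per kb, the library in which Cntnap2 was lowest at 8.53.

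Cntn4 stood at 10.2, 3.64, 1.90 and 4.84 CPM per kb, highest in replicate 1 and lowest in replicate 3. Cntn3 and Cntn6 were also highest in replicate 1, at 3.43 and 3.90 CPM per kb. Cntn5 was highest there too at 2.36 CPM per kb, and the means of Cntn3, Cntn5 and Cntn6 lay between 1.66 and 2.34 CPM per kb. None of the 3 pairs among these last genes kept its sign in every library. In the Caspr family Cntnap4, known from inhibitory neurons, stood at 5.44, 6.78, 15.1 and 5.38 CPM per kb. Replicate 3 lay apart from the others, and the markers of GABA and glycine neurons were highest in the same library (369 CPM against 72.3 to 173 CPM), as were those of granule cells, Purkinje cells and most glia. The part of such cells in the level of Cntnap4 was not tested. Cntnap5a was the most even gene of the list, at 3.38, 3.51, 3.36 and 3.37 CPM per kb.

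**Figure D3:**
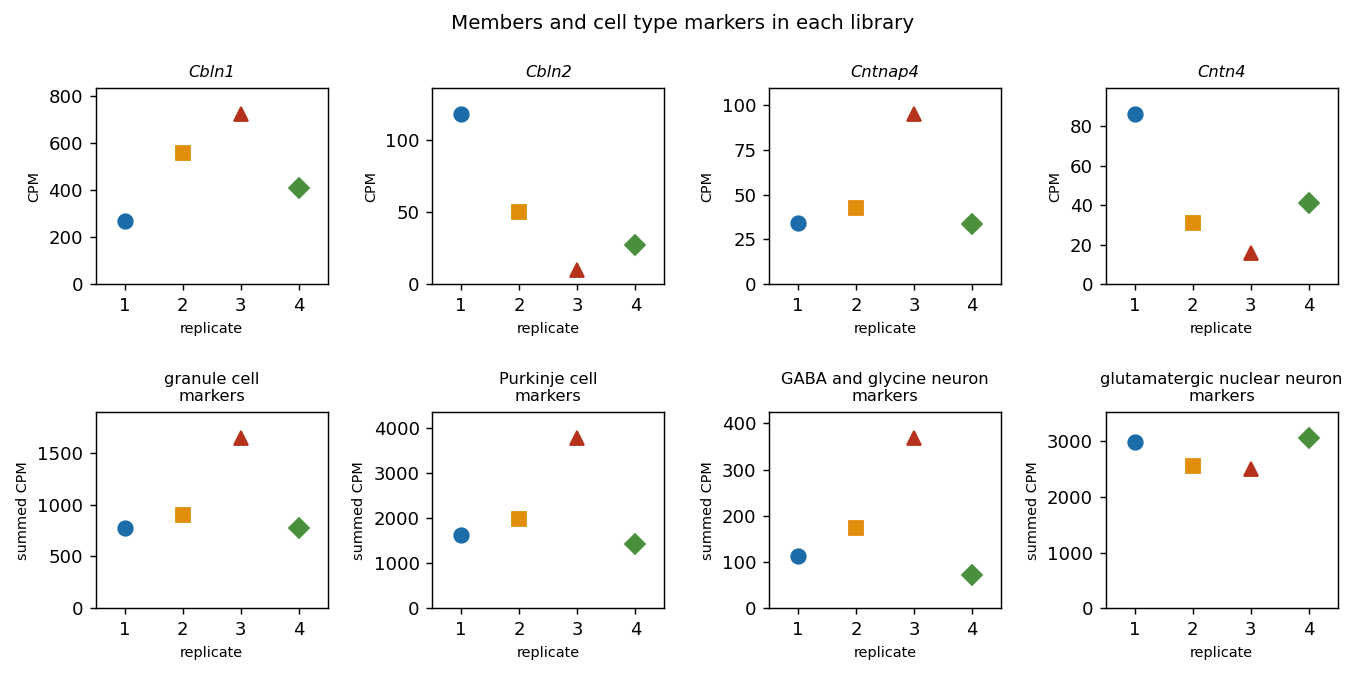
CPM of Cbln1, Cbln2, Cntnap4 and Cntn4 in each library (upper row) beside the summed CPM of 4 marker lists (lower row); all axes start at 0. Cbln1 and Cntnap4 are highest and Cbln2 and Cntn4 lowest in replicate 3, the library with the highest sums of granule cell, Purkinje cell, GABA and glycine neuron, astrocyte, oligodendrocyte, microglia and endothelial markers.

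Cadm proteins, also called SynCAMs, are immunoglobulin adhesion molecules of axons, synapses and glia. Cadm3 stood at 58.2, 74.99, 66.1 and 63.8 CPM per kb and made up 54.0 to 65.1% of the family. Cadm2 stood at 18.4, 24.9, 24.4 and 23.9 CPM per kb. Cadm3 exceeded Cadm2 by 1.53 ± 0.12 on the log2 scale in 4 of 4 libraries, the second smallest spread of the 82 ratios after that of Cntnap1 to Cntnap5a (3.07 ± 0.09). Cadm4, known from glia that wrap axons as well as from neurons, stood at 22.6, 29.4, 22.4 and 5.85 CPM per kb, with replicate 4 below the other 3. Cadm1 was lower than Cadm2 in every library without overlap, at 6.36 ± 1.94 CPM per kb.

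Between libraries, the level of a typical gene of the list varied about as much as that of other genes. The fold between the highest and the lowest library had a median of 1.98 over the 57 genes, against 2.15 over the 11213 genes at 1 CPM. It was above 4 for 8 of the 57 (14.0%) and for 16.0% of all genes, and below 1.5 for 14 (24.6%) and for 16.6% of all genes. The 8 genes were Cbln2, Lrfn4, Nxph3, Cntn4, Flrt2, Cadm4, Cntn6 and Slitrk4. Of the 57 genes, 17, 11, 9 and 20 were highest in replicates 1 to 4 (29.8%, 19.3%, 15.8% and 35.1%), against 34.7%, 15.1%, 24.98% and 25.2% of the 11213 genes. The lowest library was replicate 1 for 16, replicate 2 for 3, replicate 3 for 22 and replicate 4 for 16 of them (28.1%, 5.26%, 38.6% and 28.1%), against 17.3%, 17.8%, 27.8% and 37.0% of the 11213 genes.

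**Figure D4:**
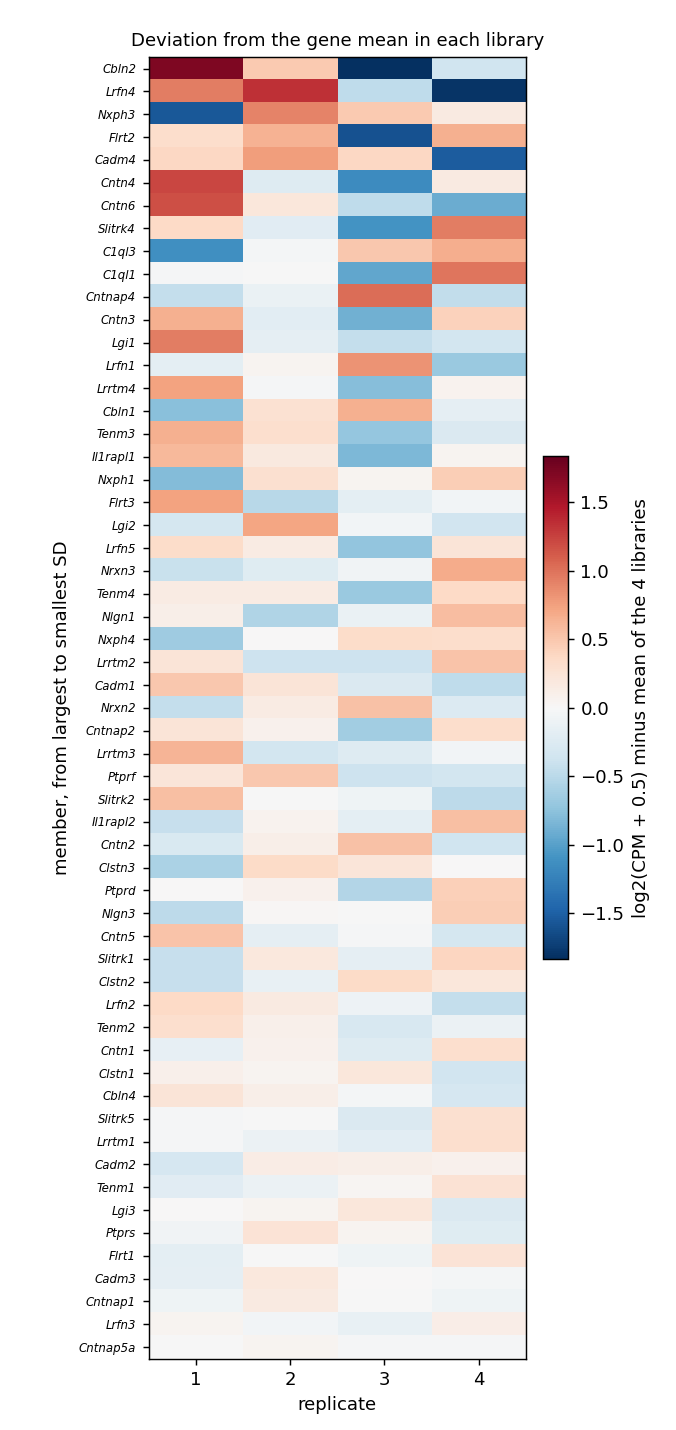
Deviation of each of the 57 genes from its own mean in each library, as log2(CPM + 0.5), ordered from the largest to the smallest SD. Cbln2 and Lrfn4 lead and Cntnap5a is last, and no library is high or low for all genes.

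Replicate 4 carries the library number 1476 and replicates 1 to 3 carry 1300, 1301 and 1302, the only division of the samples that the labels give. A single library has no spread of its own, so this test takes its spread from replicates 1 to 3 and compares that library, not a condition, with the rest. Set against the other 3 with edgeR's quasi-likelihood test, replicate 4 showed no gene of the list past an adjusted p of 0.05 in either direction, of 58 tested. Over all 15083 genes tested, 0.0398% were called higher and 0.00663% lower, which are 6 genes and 1 gene. At an unadjusted p under 0.05, 6 of the 58 were higher and 2 lower, where 7.17% and 7.56% of all genes were. The median log2 fold change was 0.09 over the 58 and -0.16 over all genes tested. The smallest adjusted p of the list was that of Cadm4 (edgeR, adjusted p = 0.169), with a log2 fold change of -1.93 ± 0.50 (SE). Cadm4 stood at 48.7, 63.5 and 48.5 CPM in replicates 1 to 3 and at 12.6 CPM in replicate 4. In replicate 4 the sums of Purkinje cell markers (1420 CPM) and of GABA and glycine neuron markers (72.3 CPM) were the lowest of the 4 libraries. Of the astrocyte and Bergmann glia list, Gja1 (2.91 CPM), Gdf10 (0.819 CPM) and Slc1a3 (23.9 CPM) were also lowest there. Most of that list, namely Gfap, Aqp4, Slc1a2, Aldh1l1 and S100b, was not lowest in replicate 4. The whole list summed to 504 CPM in replicate 4 (377 to 830 CPM elsewhere) and the oligodendrocyte list to 1005 CPM (476 to 1170 CPM elsewhere). The part of these cells in the level of Cadm4 was not tested.

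The gene of the list with the largest positive fold change was C1ql1, at 42.8, 43.1 and 22.2 CPM in replicates 1 to 3 and 86.8 CPM in replicate 4 (log2 fold change 1.43 ± 0.42 SE, edgeR adjusted p = 0.198). Nrxn3 stood at 214, 243 and 272 CPM in replicates 1 to 3 and 457 CPM in replicate 4 (log2 fold change 1.06 ± 0.30 SE, edgeR adjusted p = 0.189). Replicate 4 lay above the range of the other 3 for both genes. With DESeq2, Cadm4 passed the threshold (log2 fold change -1.92, DESeq2 adjusted p = 0.0120), and it was the only one of 57 genes to do so, where 1.13% of all genes were called higher and 1.97% lower. Without the filter on low counts, edgeR called Cadm4 lower (adjusted p = 0.0289) and Nrxn3 (adjusted p = 0.0454) and C1ql1 (adjusted p = 0.0414) higher, with 1.29% of all genes called higher and 0.936% lower. Over all alternatives the adjusted p ran from 0.0120 to 0.301 for Cadm4, from 0.0454 to 0.340 for Nrxn3 and from 0.0414 to 0.208 for C1ql1 (edgeR and DESeq2). The other genes at an unadjusted p under 0.05 were Slitrk4, Lrrtm2, Nlgn1 and Ptprd on the higher side and Lrfn4 on the lower side, with edgeR adjusted p from 0.241 to 0.338.

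**Figure D5:**
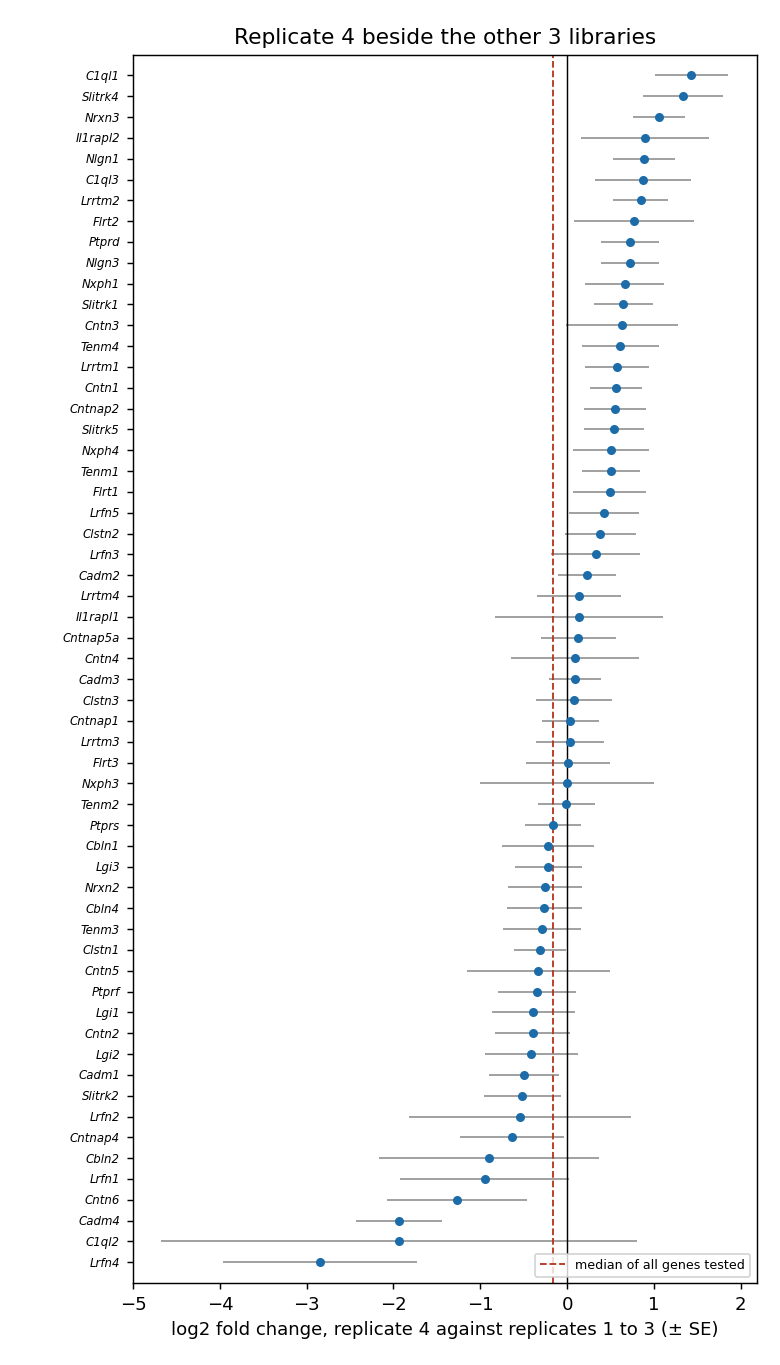
Log2 fold change of replicate 4 against replicates 1 to 3 for the 58 genes tested (points, bars ± SE), with a dashed line at the median of all genes tested (-0.16). C1ql1, Slitrk4 and Nrxn3 lie at the upper end and Lrfn4, C1ql2 and Cadm4 at the lower end, and none passes an adjusted p of 0.05.

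A list of 56 names held other genes of these pathways, such as further family members, latrophilins and the receptors of the secreted organisers. Of these, 50 were among the gene names counted, 44 reached 1 CPM in every library and 49 were tested. None of the 49 passed in the test of replicate 4 (edgeR, adjusted p under 0.05), with 8 higher and 0 lower at an unadjusted p under 0.05, where 7.17% and 7.56% of all genes were. DESeq2 called 3 of 48 higher, where 1.13% of all genes were, and these were Slitrk6, Ncam1 and L1cam. Slitrk6, of the Slitrk family, stood at 3.82, 1.08, 2.21 and 12.04 CPM per kb. Ncam1, a neural cell adhesion molecule, stood at 34.2, 36.9, 31.1 and 68.3 CPM per kb. L1cam, an adhesion molecule of axons, stood at 26.1, 25.8, 32.9 and 59.5 CPM per kb. Replicate 4 was the highest library for these 3 genes. Over edgeR and DESeq2 alternatives their adjusted p ran from 0.00139 to 0.164, from 0.0174 to 0.220 and from 0.0147 to 0.286. The highest per length were Lrrc4b, which encodes a postsynaptic partner of LAR-type phosphatases, at 69.3 ± 26.0, Cbln3 at 54.3 ± 25.3 and Adgrl1 at 44.1 ± 5.48 CPM per kb, with 15.6% of the exon bases of Adgrl1 overlapping genes on the opposite strand. Lrrc4b stood at 48.4, 76.7, 103 and 49.2 CPM per kb and was, like Cbln3, highest in replicate 3. Adgrl1 stood at 38.98, 42.8, 42.9 and 51.9 CPM per kb, highest in replicate 4.

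Genomic span was not used to choose the genes. Their median span from start to end was 64.1 kb, against 28.8 kb over the 10911 genes at 1 CPM with an annotation, and 23 of the 59 were shorter than that reference median. Of the 59, 8 span more than 1 megabase, where 0.477% of the 10911 genes do. These are Nrxn3 (chromosome 12, 88722876 to 90334935), Cntnap2 (chromosome 6, 45059357 to 47304213), Ptprd, Tenm2, Cntn4, Cntn5, Il1rapl1 and Il1rapl2. Exon length differed less, with a median of 6.15 kb against 4.94 kb. The genes lie on 19 chromosomes, with 8 on chromosome 6 and 6 on the X chromosome. Cntn6 (104492790 to 104863406) and Cntn4 (105677660 to 106699310) are on the plus strand of chromosome 6 and Cntn3 (102162655 to 102573101) on its minus strand. Cbln1 lies on chromosome 8 at 87468405 to 87472609, on the minus strand. All coordinates are on mm10.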

How the data were processed

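RNA pulled down with tagged ribosomes from 4 pools of mouse deep cerebellar nuclei was sequenced. The authors deposited whole-number read counts per gene symbol, 1 table per library. Per the submitters' processing notes, STAR (2.0.0e), HTSeq and the mm10 build were used. Neither the annotation nor the use of strand is stated in the sources used here. The 5 summary lines of each table (no feature, 14.1 to 21.1% of all counted reads; ambiguous, 2.04 to 2.94%; not unique, 14.2 to 20.6%) were left out of totals and tests. The ribosomal RNA gene Rn45s took 4.92 to 14.2% of gene counts. All library pairs differed by more than sampling noise, with chi-square at 32.9 to 119 per degree of freedom.

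Counts were divided by the library's gene total (CPM) and by exon length over all isoforms in GENCODE release 21 for mouse, which matched 73.6% of names, 97.2% of genes with 10 or more counts in every library and all 59 genes of the list. Log2 values used a pseudocount of 0.5 CPM. Replicate 4 was compared with the other 3 in edgeR 4.0.16 (R 4.3.3; TMM scaling, filterByExpr, robust quasi-likelihood fit with 2 residual degrees of freedom, Benjamini-Hochberg adjustment over all genes tested, threshold 0.05), after a check on simulated data. In that check many genes given a true log2 change of 2 went uncalled, so a lack of calls does not show a lack of difference. DESeq2 1.42.0, no filter, another threshold, other scalings, lengths and pseudocounts and leaving out each library were the alternatives. Values in every library are given for the highest gene of each family, genes called in the test of replicate 4, genes with 1 library far from the rest and genes without a count; for partners, for the 3 highest per length and any called. The main edgeR fit called no partner, and the 3 called by DESeq2 were added after their values were seen. Further genes given in every library were picked with their values in view. The genes and lists were chosen with earlier results of these data known. No sequences were used.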

Additional observations from a re-analysis of the deposited data

Results flagged for a closer look

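In 5 of the 58 genes with a count (8.62%), 1 library lay far from the other 3, by the gap to the nearest library divided by the whole range (Dixon's ratio, past its 95% critical value for 4 samples). Chance gives about 1 in 20, and 7.45% of all genes at 1 CPM were past the same value. The sets differ, since the 5 include C1ql2, which did not reach 1 CPM in every library. Cntnap4 was high in replicate 3, at 95.1 CPM against 33.8 to 42.6 CPM (ratio 0.856). Lgi1 was high in replicate 1 (0.873). C1ql2 was high in replicate 2, with 30 counts against 2 to 4 (0.935). Cadm2 was low in replicate 1 (0.847), at 18.4 against 23.9 to 24.9 CPM per kb. Cntnap5a was high in replicate 2 (0.874), in a range of only 3.36 to 3.51 CPM per kb.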

How the results depend on the processing

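No paired analysis was possible because the samples form 1 group. Without division by length, 7 of 82 mean log2 ratios changed sign: Nxph1/Nxph4 to 0.029, Lrrtm1/Lrrtm4 to -0.13, Cadm1/Cadm4 to 0.78 and Lgi1/Lgi3 to 0.25, all of which had held their sign in every library, and Tenm1/Tenm3 (0.10), Lrfn1/Lrfn4 (0.09) and C1ql1/C1ql3 (-0.47), which had not. In the test of replicate 4, genes of the list called higher were 2 without the filter on low counts, and those called lower were 1 with DESeq2 and 1 without the filter. Partners called higher were 3 with DESeq2, 4 without the filter and 0 to 2 without each of replicates 1 to 3. Over all genes, 6 were called higher; this became 17 at an adjusted p under 0.1, 154 with DESeq2, 241 without the filter and 47 to 95 without 1 library. The 1 gene called lower became 6, 269, 175 and 26 to 30. Why these counts differ was not tested. The highest gene per length was unchanged in 16 of 17 families, all but Lrrtm, under 6 settings (another length, library total without Rn45s, 4 left-out libraries); undivided by length it changed in 3 families, to Nxph1, C1ql3 and Lgi1. With the longest transcript as length, levels moved by over 1.5 times for 11 genes, among them Lrfn5 (20.2 CPM per kb), Cntn1 (58.1) and Cadm1 (13.9). Without replicate 2, C1ql2 stood at 0.144 CPM per kb. The limits are 4 libraries, 1 group and no input.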
